A study of Leptinotarsa decemlineata with 61 samples.

Results

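The broadly expressed genes of chromosome 6 of the Colorado potato beetle (*Leptinotarsa decemlineata*) were described across the sample types of the gene expression atlas of this species. A gene was a member if its first listed position was on chromosome 6 and its level exceeded 1 TPM in 56 libraries, that is in every atlas library except the 3 testes libraries. TPM is the number of read pairs on a gene per base of its length, scaled within each library to a fixed total. The rule gave 310 genes of the 15578 in the expression table, out of 796 table genes on chromosome 6. Applied to the other 17 chromosomes, the same rule gave 5222 genes, which serve throughout as the comparison because they were chosen by the same levels. A further 4 such genes were on unplaced contigs and were left out. The rule fixed that the members were detected outside testes and left their testes level free. The pattern described here was nevertheless known when the members were chosen.

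The study sequenced mRNA of 61 samples of 21 sample types of the E06 strain, with no treatment, and the authors removed 1 female hindgut and 1 yellow fat body library, which left 59. The samples were testes (adult males), ovaries (adult females), fertilized eggs (5 pooled per library), whole L1, L2 and L3 larvae (3 pooled per library) and 41 libraries of 7 somatic tissues. The somatic tissues were aedeagus and genital ducts of adult males, hemolymph of fourth-instar (L4) larvae, malpighian tubules of adults of both sexes, and midgut, hindgut and fat body of adults of both sexes and of L4 larvae. The white and the yellow fat body of L4 larvae were separate sample types. Adult tissues came from single individuals 7 days after emergence and L4 tissues from single larvae on day 19 from egg laying, and the sex of eggs and larvae was not given. Each sample type had 3 libraries, except female hindgut and white L4 fat body with 2 and yellow L4 fat body with 1. A somatic mean is the unweighted mean of the 7 tissues.

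Testes hold male germ cells at successive stages of spermatogenesis together with somatic sheath and cyst cells. Males of this beetle carry a single X chromosome and no Y, and in the male germ line of many animals the X is expressed at a low level relative to the autosomes. The sources used here do not say which assembled chromosome is the X, and chromosome 6 is called by its number only. The genes carry identifiers of the authors' annotation, none of which matched a RefSeq entry (0 matched), so that no function is given for them.

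The libraries held 9913155 to 18579970 read pairs on the genes of the table, with 17383246, 15509553 and 14543850 in testes 1, 2 and 4. A single read pair on a gene of median length (1209 bases) was worth at most 0.122 TPM. No named marker gene was at hand to check the tissue label. The 947 genes that these same libraries gave as testes-specific had a median log2(TPM + 1) of 7.26 to 7.35 in each testes library and at most 0.76 in any other, which their choice fixed in the main. Genes specific to other tissues had medians of 0.18 to 0.62 in testes, except the 30 fat body-specific genes with 1.11 to 1.48. The median of those 30 was 1.59 to 5.91 in fat body and at most 2.14 elsewhere.

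The members were low in testes. Their median level was 8.14 ± 0.24 TPM in testes (SD, n = 3; 7.97 to 8.41), against 34.5 ± 12.2 TPM in ovaries, 32.7 ± 3.36 TPM in fertilized eggs (n = 3 each) and 9.21 to 40.5 TPM (median 23.1) in the somatic libraries. Every one of the 56 other libraries was above the 3 testes libraries. In the same testes libraries the genes chosen on other chromosomes had a median of 41.6 ± 1.54 TPM, so that the low level of the members was not shared by the other genes. The low somatic levels, from 9.21 TPM, were those of female midgut and fat body, where the genes of other chromosomes were similarly low, from 9.58 TPM.

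**Figure D1:**
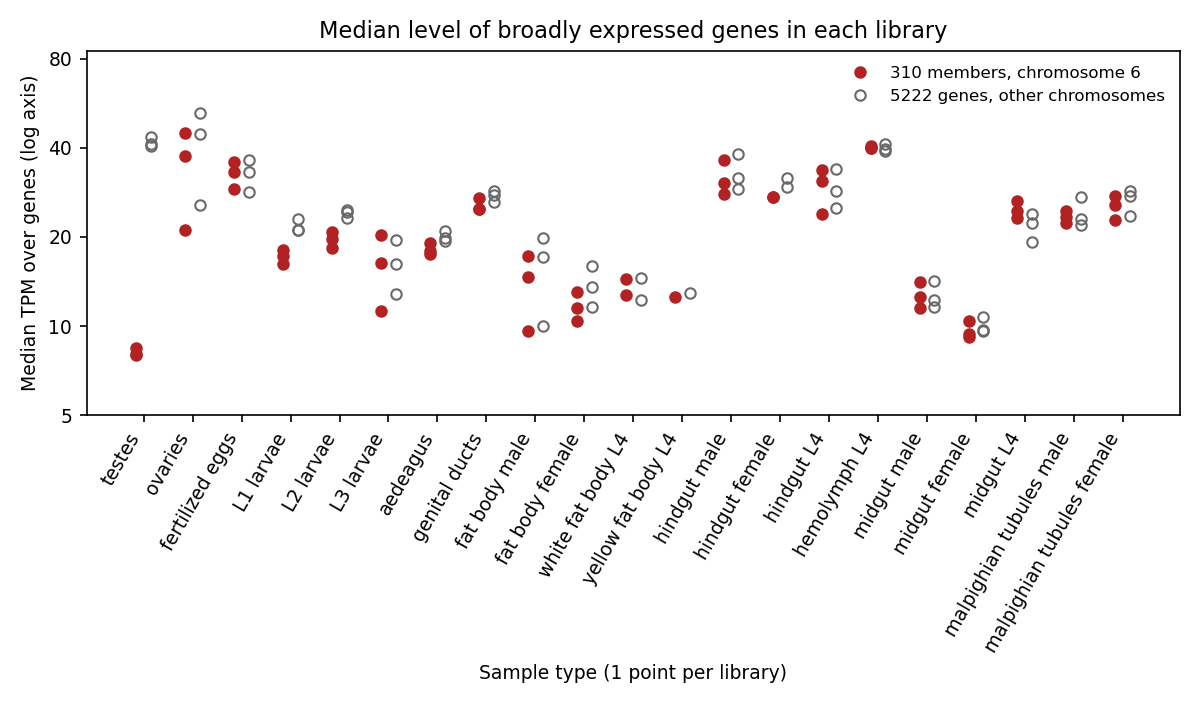
Median TPM of the 310 members on chromosome 6 (filled) and of 5222 genes on 17 other chromosomes (open), on a log axis, with 1 point per library for each of 21 sample types. The members lie far below the other genes in testes (8.14 against 41.6 TPM) and close to them in every other sample type.

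The distance between both sets was measured in each library as the median of the members minus that of the other chromosomes, after centring each gene on its mean over the somatic tissues. It was -2.03 ± 0.03 in testes (SD, n = 3) on the log2(TPM + 1) scale. In the other 56 libraries it lay between -0.26 (an L1 library) and 0.34 (an L4 midgut library). The 41 somatic libraries among them make up the mean used for centring, which holds their values near 0 on average. Only ovaries, eggs and whole larvae were free of this. In the ovaries, the other gonad, it was -0.09 ± 0.02 and in fertilized eggs -0.03 ± 0.03 (n = 3 each). The members took up 1.35 ± 0.10% of the summed TPM of all broadly expressed genes in testes, and between 3.50% and 6.90% in the other libraries. In bulk tissue, a lower RNA content of these genes per cell cannot be told apart from a lower share of the cells that express them.

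Gene by gene, 278 of 310 members (89.7%) were lower in testes than in the somatic mean, 5 (1.61%) were higher, and 27 did not pass the threshold. The test was limma on log2(TPM + 1) across 15538 genes, with a Benjamini-Hochberg adjusted p below 0.05. Of the genes chosen on other chromosomes, 18.7% were lower and 55.4% higher, and of all genes tested 19.5% were lower and 44.8% higher. With libraries rescaled by median-of-ratios factors, the members were split into 301 lower and 1 higher and the other chromosomes into 37.2% lower and 40.6% higher. The median difference of the members was -1.45, with an interquartile range of -1.89 to -1.01, against 0.61 (-0.20 to 1.48) on the other chromosomes. The gap between the medians was -2.06, a 4.17-fold difference on the TPM + 1 scale. On the linear scale, the ratio of the testes mean to the somatic mean had a median of 0.285 in the members and 1.33 in the others, and it was 0.5 or less in 266 members (85.8%) and in 15.8% of the others.

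**Figure D2:**
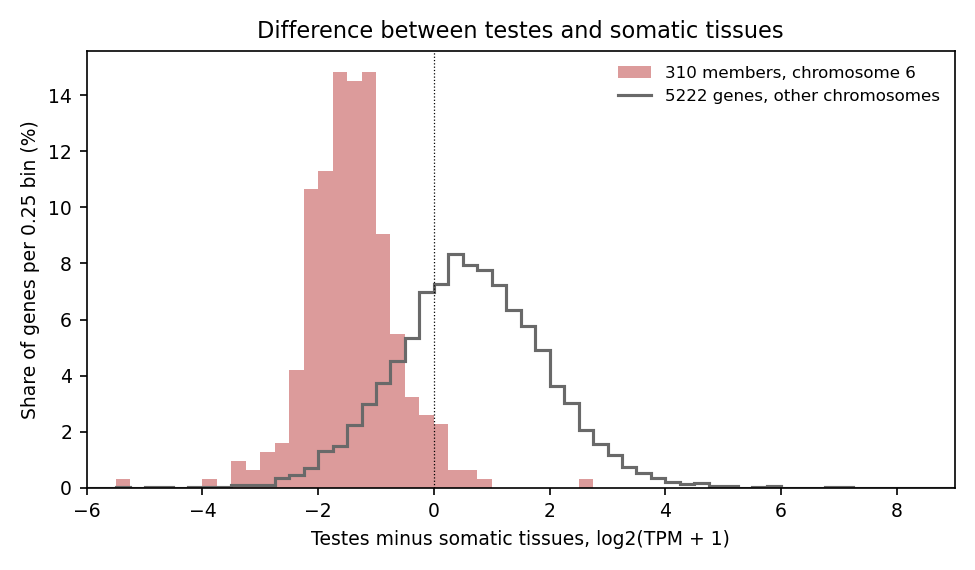
Share of genes in bins of 0.25 of the difference testes minus somatic tissues, in log2(TPM + 1), for the 310 members on chromosome 6 (filled) and 5222 genes on 17 other chromosomes (line). The members centre on -1.45 with an SD of 0.79, and the other genes centre on 0.61 with an SD of 1.31.

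The members also varied less among themselves. The SD of their differences was 0.79, below that of each of the other 17 chromosomes (1.22 to 1.43). For 78 members (25.2%) all 3 testes libraries lay below all 41 somatic libraries, which held for 1.59% of the genes on other chromosomes and 1.07% of all genes tested. The reverse, testes above every somatic library, was found for 0 members and for 25.2% of the genes on other chromosomes. The low level was not an absence: 305 members exceeded 1 TPM in all 3 testes libraries, and 0 were below 1 TPM in all 3. The lowest single value was 0.615 TPM (LdNA_12407, in testes 4), and the lowest number of read pairs summed over the testes libraries was 24.

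Against ovaries, 280 members (90.3%) were lower in testes and 4 were higher, with a median difference of -1.93. In that comparison 25.5% of the genes on other chromosomes were lower and 30.5% higher (all genes tested 19.9% and 33.2%), with a median of 0.08. Against fertilized eggs, 288 members (92.9%) were lower and 1 was higher, with a median of -1.96. Here the other chromosomes had 26.6% lower and 36.0% higher (all genes tested 30.5% and 32.5%), with a median of 0.15. All testes libraries lay below the 3 ovaries libraries in 281 members, which held for 22.6% of the genes on other chromosomes (all genes tested 20.2%), and below the 3 egg libraries in 297 members, which held for 34.0% (all genes tested 34.3%). They lay above the ovaries libraries in 4 members, which held for 32.3% of the genes on other chromosomes (all genes tested 36.7%), and above the egg libraries in 4 members, which held for 43.1% (all genes tested 36.6%). These comparisons share the testes libraries. In 253 members the testes were lower in all 3 comparisons, which held for 10.4% of the genes on other chromosomes (all genes tested 7.44%). In 0 members they were higher in all 3, which held for 21.5% (all genes tested 23.2%).

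Chromosome 6 was the lowest of the 18 chromosomes in each of these comparisons. The medians of the other chromosomes lay between 0.35 (chromosome 18) and 0.73 (chromosome 5) against the somatic tissues, between -0.09 and 0.17 against ovaries and between -0.11 and 0.27 against eggs. Broad expression itself was not rare on chromosome 6, where 38.9% of the genes in the table met the rule, against 27.8% to 41.5% on the others. The members were longer, with a median of 2181.5 bases (1507 to 1793 on the other chromosomes), and had a median of 6 exons (5 to 6). Their median somatic level, 4.55 on the log2 scale, was inside the range of the other chromosomes (4.42 to 5.03).

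**Figure D3:**
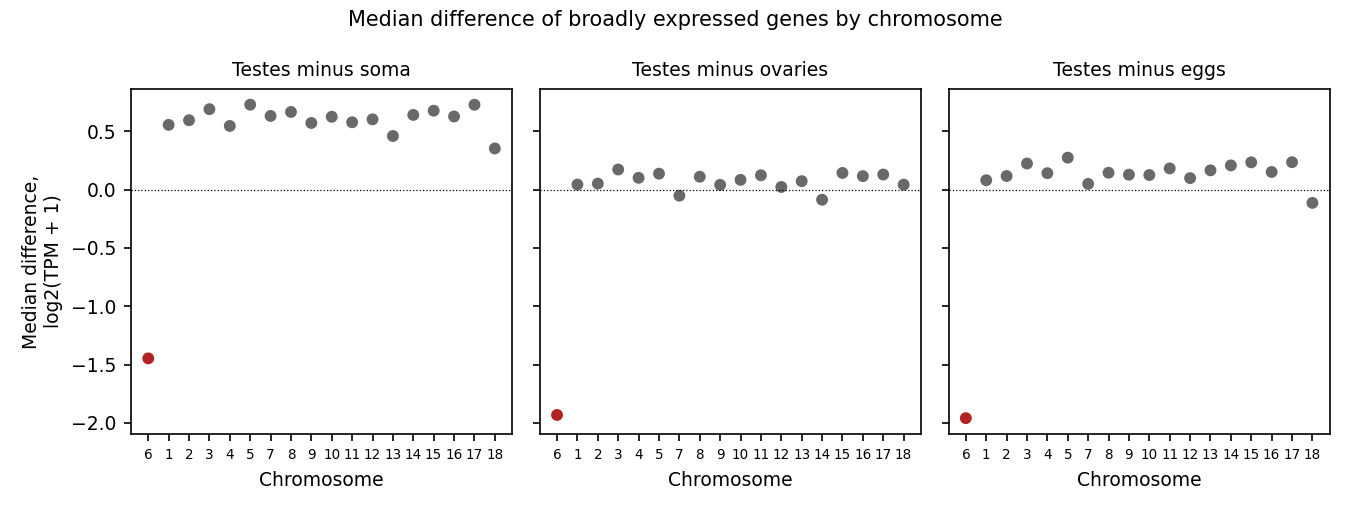
Median difference in log2(TPM + 1) of the broadly expressed genes of each chromosome, with chromosome 6 at the left of each panel, for testes minus somatic tissues, testes minus ovaries and testes minus fertilized eggs. Chromosome 6 lies at -1.45, -1.93 and -1.96, and the other 17 chromosomes lie between -0.11 and 0.73.

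The most abundant members show the pattern in single libraries. LdNA_13787, a gene of 1678 bases and 3 exons from 61083380 to 61086857 on the plus strand, had the highest somatic mean of the members. It had 1107, 893 and 1309 TPM in testes, against 2673, 3471 and 4816 TPM in ovaries, 9437, 11076 and 10528 TPM in eggs and 2666 to 9657 TPM (median 4364) in the somatic libraries. Every testes value was below every value of the other groups, and the difference from soma was -2.16 ± 0.13 (SE; limma adjusted p = 1.7e-18). LdNA_13518, of 669 bases, had 339, 192 and 297 TPM in testes, against 1215, 1358 and 1697 TPM in ovaries, 2977, 3152 and 3156 TPM in eggs and 892 to 2765 TPM (median 1486) in soma. Its testes libraries again did not overlap with any other group, with a difference from soma of -2.50 ± 0.12 (limma adjusted p = 8.9e-22). LdNA_13688 was likewise below every somatic library in testes, with 255, 194 and 256 TPM against 424 to 3201 TPM, and differed by -2.31 ± 0.13 (limma adjusted p = 2.3e-19). LdNA_12956 overlapped: its testes values of 306, 284 and 339 TPM reached into the somatic range of 322 to 2683 TPM (median 957), with a difference of -1.86 ± 0.15 (limma adjusted p = 4.4e-15).

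LdNA_13699 was the abundant member that did not pass the test against soma. It had 296, 191 and 252 TPM in testes, against 35.4, 37.6 and 45.6 TPM in ovaries, 388, 435 and 370 TPM in eggs and 71.0 to 6486 TPM (median 469) in soma. The difference from soma was -0.77 ± 0.41 (limma adjusted p = 0.10). The testes libraries were all above the ovaries, by 2.59 ± 0.55 (limma adjusted p = 9.5e-05). The highest somatic library was a male fat body at 6486 TPM, and fat body as a whole spread from 469 TPM to that value.

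The members with the most negative differences were genes with very high levels in particular somatic tissues. LdNA_11909, of 1521 bases from 373587 to 387969 on the minus strand, had 17.2, 46.8 and 26.5 TPM in testes and 12078 to 17970.4 TPM in genital ducts, the highest tissue. Over all somatic libraries it ranged from 1.19 TPM in white L4 fat body to that value, with a median of 2491 TPM, so that the testes values were inside the somatic range. Its difference was -5.28 ± 0.56 (limma adjusted p = 4.4e-11), and in ovaries it was low too, with 81.9, 33.8 and 36.3 TPM, which the test did not separate from testes (-0.72, limma adjusted p = 0.47). LdNA_13684 had 16.3, 17.2 and 18.7 TPM in testes, below all somatic libraries (19.96 to 2565 TPM, median 215, highest in hemolymph), and differed by -3.94 ± 0.21 (limma adjusted p = 6.4e-21). LdNA_11931 had 16.2, 14.4 and 18.0 TPM in testes, below all somatic libraries (27.9 to 1124 TPM, highest in hindgut), and differed by -3.38 ± 0.16 (limma adjusted p = 1.4e-22).

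LdNA_11985, LdNA_13473 and LdNA_11946 followed, with differences of -3.38 ± 0.64, -3.30 ± 0.19 and -3.19 ± 0.20 (limma adjusted p = 1.2e-05, 6.8e-20 and 3.9e-18). Their highest tissue means, over all sample types of a tissue, were those of hindgut, genital ducts and genital ducts, although the highest single libraries of LdNA_11985 were white L4 fat body, at 1771 and 2045 TPM. LdNA_13473 and LdNA_11946 had testes values of 7.75 to 8.42 and 4.11 to 5.72 TPM, below the lowest somatic values of 14.8 and 7.68 TPM. LdNA_11985 overlapped, with 6.61 to 8.49 TPM in testes and a lowest somatic value of 1.45 TPM. LdNA_13473 shares exon bases with another gene of the table, and because the libraries were non-directional its values are less certain.

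Few members reached the level of the other chromosomes. Escape was defined as a difference from soma at or above 0.61, the median of the genes on other chromosomes. By definition as many of those genes lie above this line as below it. By this measure 3 members (0.968%) escaped. With the line at 0, 13 members (4.19%) were at or above it, against 69.4% of the genes on other chromosomes. With the line at the lower quartile of the other chromosomes, -0.20, which most of those genes reach by definition, 18 members (5.81%) were at or above it. A weaker criterion, that all 3 testes libraries lay within or above the range of the 7 somatic tissue means, was met by 69 members (22.3%), against 88.7% of the others. These classes were cut from the measured difference and are given as a description.

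LdNA_11919, of 1521 bases and 5 exons from 514145 to 518529 on the minus strand, stood far above the rest. It had 163, 111 and 152 TPM in testes, against 5.07, 2.18 and 5.67 TPM in ovaries, 45.6, 63.8 and 47.9 TPM in eggs and 1.68 to 632 TPM (median 15.9) in soma. All testes values were above the ovaries and the eggs, and at the low end of the fat body libraries, which had 116 to 632 TPM. Outside fat body the highest somatic value was 74.9 TPM, in a female hindgut library. The difference from soma was 2.69 ± 0.58 (limma adjusted p = 7.8e-05) and that from ovaries 4.80 ± 0.78 (limma adjusted p = 1.1e-06). That from eggs was 1.42 ± 0.78 and did not pass (limma adjusted p = 0.11), although testes and eggs did not overlap. The SE pools the replicate spread of all sample types, and male fat body alone had 125 to 632 TPM. The 30 fat body-specific genes had a median log2(TPM + 1) of 1.11 to 1.48 in these testes libraries, and the part of fat body RNA in the level of LdNA_11919 was not tested.

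LdNA_12056 and LdNA_12124 lay just inside the line, with differences of 0.81 ± 0.35 and 0.73 ± 0.19 (limma adjusted p = 0.044 and 0.00093). LdNA_12056, of 951 bases from 6099702 to 6104020 on the plus strand, had 57.4, 44.5 and 53.8 TPM in testes, against 172, 271 and 396 TPM in ovaries, 71.4, 119 and 108 TPM in eggs and 4.04 to 406 TPM (median 28.5) in soma. Its testes values were inside the somatic range, below hemolymph (217 ± 40.3 TPM, n = 3) and L4 midgut (333 ± 98.2 TPM, n = 3). Its call was lost without any single testes library, and also without aedeagus, genital ducts, hindgut or malpighian tubules. On the linear scale its ratio of testes to soma was 0.762, below 1. LdNA_12124, of 1782 bases from 8874435 to 8876276 on the plus strand, had 8.99, 12.5 and 10.8 TPM in testes, against 16.99, 31.4 and 31.5 TPM in ovaries, 6.56, 9.13 and 10.1 TPM in eggs and 1.53 to 14.9 TPM (median 5.40) in soma. Its testes libraries overlapped with hindgut and hemolymph and were below all ovaries libraries (-1.19, limma adjusted p = 0.00012).

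LdNA_13335 and LdNA_12053 lay just outside the line and were still called higher than soma. LdNA_13335, from 43752585 to 43836547 on the plus strand, had 5.25, 8.50 and 7.11 TPM in testes, against 7.75, 17.3 and 26.4 TPM in ovaries, 4.13, 6.46 and 6.03 TPM in eggs and 1.29 to 11.8 TPM (median 4.18) in soma, a difference of 0.51 ± 0.19 (limma adjusted p = 0.018). LdNA_12053, from 6051938 to 6056857 on the minus strand, had 6.04, 7.20 and 6.07 TPM in testes, against 24.2, 41.6 and 54.0 TPM in ovaries, 4.001, 5.69 and 5.24 TPM in eggs and 1.42 to 11.7 TPM (median 4.72) in soma, a difference of 0.49 ± 0.17 (limma adjusted p = 0.012). Both sat inside the somatic range, and both calls were lost without testes 2 (that of LdNA_13335 also without testes 4). With libraries rescaled by median-of-ratios factors, the difference of LdNA_12053 was -0.020 and LdNA_11919 alone remained called higher.

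**Figure D4:**
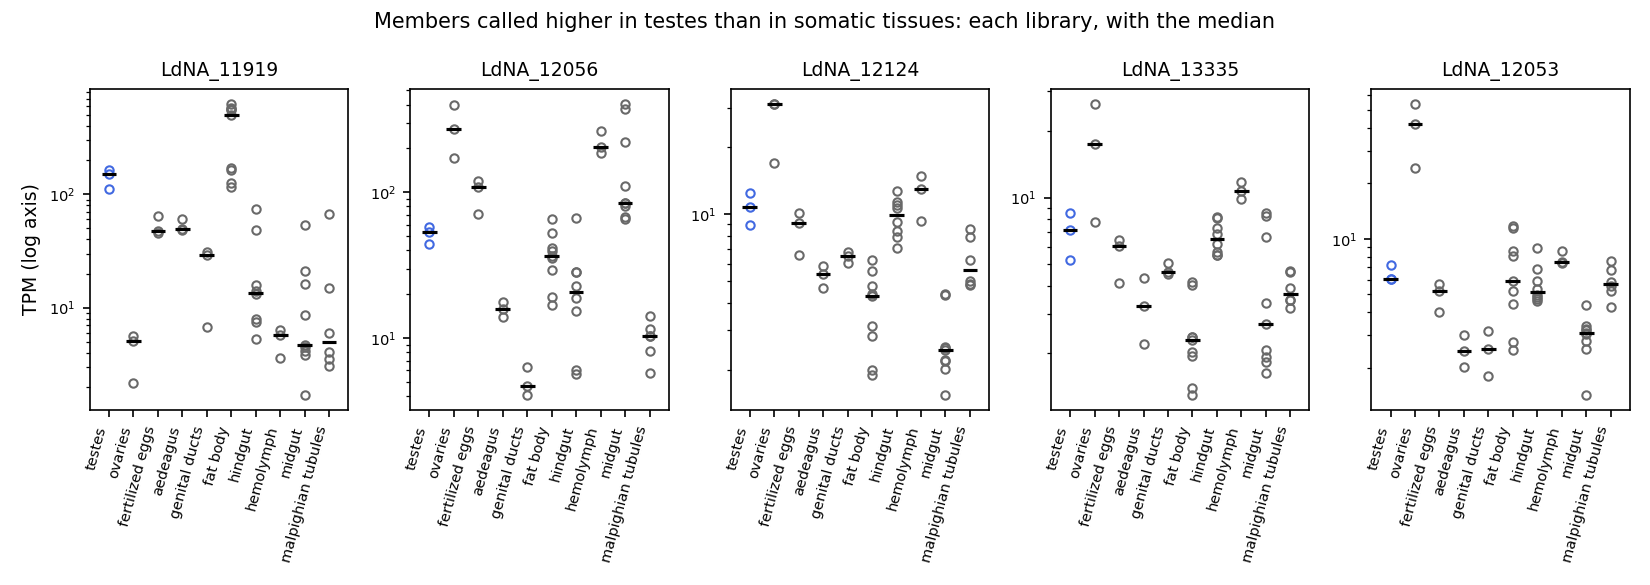
TPM on a log axis of the 5 members called higher in testes than in somatic tissues, with 1 circle per library and a bar at the median of each tissue. The testes values (blue, left) of LdNA_11919 are 111 to 163 TPM, above ovaries and eggs and at the low end of fat body, and those of the other 4 genes are inside the range of the somatic libraries.

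Of these 5 genes, 4 had their highest median in ovaries among eggs and tissues with all sample types of a tissue pooled. By sample type LdNA_12056 was higher in L4 midgut, at 222, 372 and 406 TPM. How many of all members have their highest median in ovaries was not counted. By the test, ovaries were higher than soma in 50% of all members and 54.3% of the genes on other chromosomes. The remaining 8 members at or above 0 were not called, with differences of 0.00 to 0.42. LdNA_13798 had the largest of these, with 68.5, 115 and 66.9 TPM in testes and 9.97 to 769 TPM (median 53.1) in soma (limma adjusted p = 0.31), and was picked out after its values were seen. Compared with ovaries, 4 members were higher in testes. They were LdNA_11919, LdNA_13699, LdNA_12757 and LdNA_12374, the last with 7.65, 4.77 and 6.16 TPM in testes against 2.18, 2.29 and 1.85 TPM in ovaries (1.19 ± 0.26; limma adjusted p = 0.00014). Compared with eggs, LdNA_13664 was the 1 member that was higher in testes, with 22.8, 19.0 and 21.5 TPM against 8.41, 12.7 and 11.5 TPM (0.91 ± 0.33; limma adjusted p = 0.016). LdNA_12374 and LdNA_13664 were also chosen after their values were seen.

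Position along the chromosome was described in 10 bins of 31 members in order of gene start. The bin medians of the difference from soma ran from -1.66 in bin 7 to -1.17 in bin 4, a range of 0.49. On the other 17 chromosomes the same range was 0.54 to 1.84 (median 0.96), and their lowest bin median was -0.31, above every bin of chromosome 6. The narrower range does not show that chromosome 6 was more even along its length. Single members also spread less, with an interquartile range of 0.87 against 1.68 over the genes of the other chromosomes. Bin sizes differed too, since those chromosomes had 140 to 439 such genes. The range relative to this spread was not tested. The number of members called lower was 26 to 31 of 31 in every bin. The first member, LdNA_11901 from 233227 to 243832, had 9.30, 9.21 and 9.73 TPM in testes, against 9.47 to 55.0 TPM (median 27.2) in soma, a difference of -1.56 ± 0.15 (limma adjusted p = 1.8e-12). The last, LdNA_13841 from 62814045 to 62826883, had 3.55, 2.13 and 3.31 TPM in testes, against 5.80 to 52.7 TPM (median 20.6) in soma, a difference of -2.19 ± 0.16 (limma adjusted p = 4.4e-16). Both ends of the mapped genes thus held low members.

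**Figure D5:**
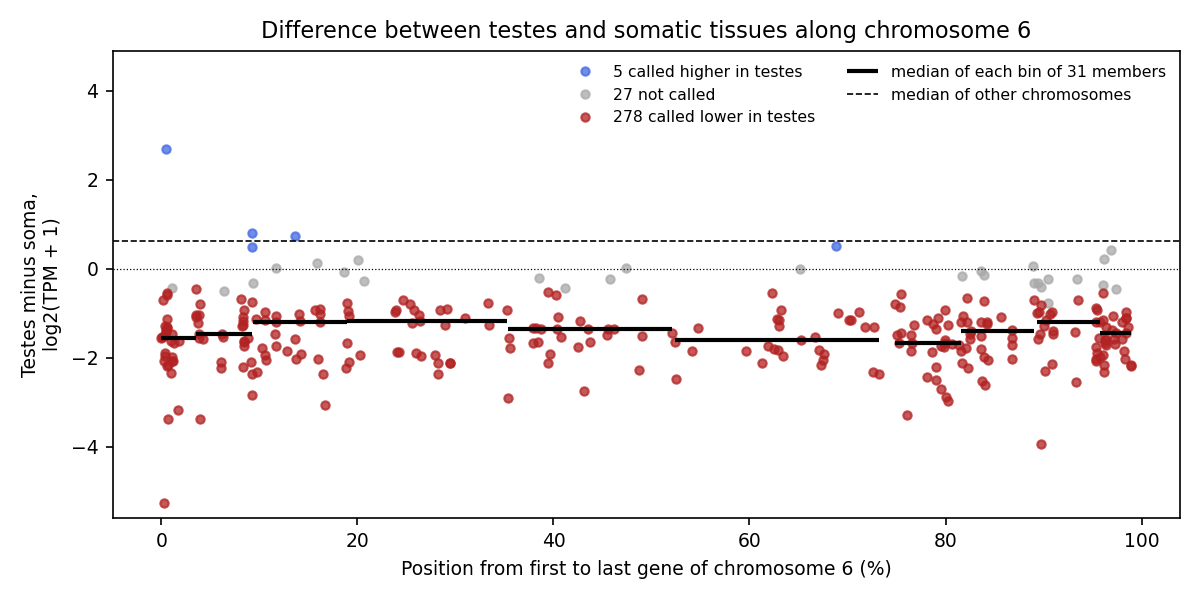
Difference testes minus somatic tissues in log2(TPM + 1) for each of the 310 members against its position from the first to the last gene of chromosome 6 in percent, coloured by the limma call, with the median of each bin of 31 members (black bars) and the median of the other chromosomes (dashed, 0.61). The bin medians stay between -1.66 and -1.17 along the whole length.

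Across the 310 members, Spearman's rho of the difference was 0.02 with the gene start and 0.01 with the distance to the nearer end of the mapped genes. Between neighbouring members (309 pairs) it was -0.10. On the other chromosomes rho with the start was -0.17 to 0.04, and between neighbours -0.07 to 0.14. All these points come from the same libraries, and genes are not independent replicates. The 3 escaping members lay at 0.444%, 9.28% and 13.7% of the way along, all in bins 1 to 3. With 3 genes this does not show a dependence, and the 13 members at or above 0 were spread over 8 of the 10 bins, with 6 in bins 1 to 3 and 2 in the last. Of the 26 direct neighbours of these 13 members, 0 were themselves at or above 0.

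A pair of the 5 genes called higher, LdNA_12053 and LdNA_12056, lay near each other, with LdNA_12058 from 6118733 to 6128662 close by. The 3 genes were put together after their values were seen, and the pair were not direct neighbours. With 20 bins, both fell in a bin of 15 members, of which the other 13 were called lower in testes. All 3 were high in ovaries. LdNA_12058 had 6.58, 5.60 and 8.04 TPM in testes, against 51.5, 91.8 and 126 TPM in ovaries, 18.9, 29.8 and 22.2 TPM in eggs and 2.50 to 31.1 TPM (median 8.93) in soma. Its testes value did not differ from soma by the test (-0.31 ± 0.31; limma adjusted p = 0.40), and its ovaries were higher than soma by 3.16 ± 0.31 (limma adjusted p = 1.7e-11).

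The difference fell as the somatic level of the gene rose. In quartiles of the somatic level, from low to high, its median in the members was -1.02, -1.34, -1.52 and -1.97. The somatic level is part of the difference, and on other chromosomes the medians in the same bands of level fell likewise, being 1.26, 0.90, 0.56 and -0.10. The gap between both sets was present in all 4 bands and narrowed as the level rose (-2.28, -2.24, -2.08 and -1.87). Length made little difference, with medians of -1.52, -1.35, -1.43 and -1.46 in quartiles from short to long, and exon number likewise (-1.45, -1.40, -1.43 and -1.46). The 18 members at or above the lower quartile of the other chromosomes had a median length of 1829 bases, a median somatic level of 14.7 TPM and 0 exon overlaps with other genes, against 2190 bases, 27.1 TPM and 5 overlaps in the other 292. Their median difference between ovaries and soma was 1.49, against 0.45 in the other 292, but that comparison shares its somatic libraries with the one that defined the 18.

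Outside testes the members were much closer to the genes of the other chromosomes. In ovaries against soma, 155 members were higher and 50 (16.1%) lower, where the other chromosomes had 54.3% higher and 13.8% lower (all genes tested 34.2% and 19.6%). With median-of-ratios scaling 89 members were higher and 128 lower, and the other chromosomes turned likewise, to 33.5% higher and 35.9% lower. The median difference was 0.47 in the members and 0.55 in the others. The largest was that of LdNA_13609, with 80.6, 155 and 206 TPM in ovaries against 3.50 to 27.4 TPM (median 10.6) in soma, a difference of 3.53 ± 0.19 (limma adjusted p = 9.6e-20). Its testes values of 11.2, 10.3 and 8.25 TPM lay inside the somatic range. In fertilized eggs against soma, 167 members were higher and 16 lower, where the other chromosomes had 56.1% higher and 8.16% lower (all genes tested 46.7% and 10.2%), with medians of 0.49 and 0.54. Here the same scaling gave 69 members higher and 104 lower, with 22.6% higher and 33.0% lower on the other chromosomes.

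The members highest in eggs relative to soma were LdNA_12757 and LdNA_13744. LdNA_12757 had 181, 271 and 218 TPM in eggs, against 6.58 to 134 TPM (median 24.2) in soma, a difference of 2.93 ± 0.25 (limma adjusted p = 1.6e-13). In testes it had 23.7, 16.2 and 35.7 TPM, which did not differ from soma by the test (-0.22 ± 0.25, limma adjusted p = 0.45) and exceeded its ovaries values of 6.40, 12.0 and 16.5 TPM by 1.07 ± 0.34 (limma adjusted p = 0.0063), although testes 2 and ovaries 4 overlapped. LdNA_13744 had 47.7, 59.5 and 55.6 TPM in eggs, against 1.10 to 40.4 TPM (median 11.6) in soma, a difference of 2.16 ± 0.22 (limma adjusted p = 2.9e-11). In testes it had 6.36, 6.08 and 7.42 TPM and was lower than soma, by -0.70 ± 0.22 (limma adjusted p = 0.0053). In whole L1 and L2 larvae the member medians relative to soma were -0.36 and -0.17, the lowest of the 18 chromosomes (others -0.21 to 0.04 and -0.10 to 0.09). In L3 larvae the value was -0.54, inside the range of the others (-0.57 to -0.44).

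Males and females were compared in the 4 somatic tissues sampled in adults of both sexes, a contrast that the rule did not use. Over these tissues, 4 members were higher and 1 lower in males, where the other chromosomes had 0.249% higher and 0.134% lower (all genes tested 0.425% and 0.457%). The median difference was 0.15 in the members and 0.12 in the others. By tissue it was 0.30 in midgut, 0.17 in hindgut, 0.16 in fat body and -0.06 in malpighian tubules, against 0.30, 0.11, 0.17 and -0.12 on the other chromosomes. The pooled median was the highest of the 18 chromosomes (others 0.11 to 0.14), as were those in hindgut (others 0.08 to 0.13) and malpighian tubules (others -0.15 to -0.08). The count of members higher in males was not stable. It was 83 with limma-voom, 44 with the replicate block and 37 without male fat body 7. Of the genes on other chromosomes, these fits called 15.1%, 8.20% and 7.70% higher, in that order.

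LdNA_13340, from 43893538 to 43970158 on the minus strand, was the 1 member lower in males, by -1.13 ± 0.18 (limma adjusted p = 0.00017). In malpighian tubules it had 10.8, 8.54 and 10.7 TPM in males, against 38.0, 41.4 and 32.1 TPM in females. In hindgut it had 21.2, 28.0 and 24.1 TPM in males, against 63.3 and 57.0 TPM in females. The sexes did not overlap in these tissues or in fat body (7.94, 7.95 and 16.3 TPM in males, 16.5, 18.3 and 21.1 TPM in females), whereas in midgut they did. LdNA_12037, a single-exon gene of 474 bases, was higher in males, by 1.07 ± 0.22 (limma adjusted p = 0.0069). In midgut it had 36.3, 16.8 and 17.8 TPM in males, against 4.77, 6.32 and 3.74 TPM in females, and in fat body 43.4, 53.2 and 14.3 TPM in males, against 6.76, 8.28 and 7.79 TPM in females. In hindgut, its highest tissue, the sexes overlapped, at 664 to 1374 TPM in males and 733 and 1135 TPM in females. Both genes were lower in testes than in soma, by -1.001 ± 0.26 and -1.17 ± 0.32 (limma adjusted p = 0.00090 and 0.0015). LdNA_12288, LdNA_13503 and LdNA_13583 were the other members higher in males, by 0.48 to 0.93 (limma adjusted p = 0.017 to 0.036), and were chosen after their values were seen.

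The 486 other genes of chromosome 6 did not meet the rule, and their median difference between testes and soma was -0.27, against 0.01 to 0.45 on the other chromosomes. By the rule for tissue-specific genes (tau above 0.85), 15 genes of chromosome 6 (1.88%) were testes-specific, against 6.30% of the genes on other chromosomes (4.58% to 7.67% by chromosome). Genes specific to another tissue were also scarcer, 24 (3.02%) against 7.32%.

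At the threshold of the rule, the lowest value of a member outside testes was 1.01 and 1.02 TPM in the 2 members nearest to it, and 0.99998 and 0.996 TPM in the 2 nearest genes of chromosome 6 that missed it. Between testes libraries, the Pearson coefficient across the 310 members was 0.906 to 0.931. Samples of a type came from separate individuals or pools, and p-values measure the spread between these samples.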

How the data were processed

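The authors trimmed the reads with Trimmomatic (first 10 bases and short reads removed), checked them with FastQC 0.11.9, aligned them with STAR to a chromosome-level assembly (no source used here names its build), and counted read pairs per gene with featureCounts (Subread 2.0.5). Libraries were non-directional. The values deposited are TPM for genes above 1 TPM in at least 2 samples, with gene length in bases. All sample columns were mapped (0 left out). Groups follow the sample titles, since the tissue field names another sample type for 59 samples. No 2 of 56 replicate pairs were identical (lowest chi-square per gene 14.0). Whole read pairs were recovered from TPM and length within 0.01 for 100% of values.

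Differences on log2(TPM + 1) were tested with limma 3.58.1 (R 4.3.3, trended empirical Bayes) in 1 model of 59 libraries and 21 sample types, for 15538 genes above 1 TPM in at least 2 libraries, with Benjamini-Hochberg adjustment over all of them and a threshold of 0.05. The plan spoke of more somatic tissues than the 7 that the labels give, and the 7 were used. Members, gene lists and rules were chosen with earlier results of these data known. Genes named are the 6 most abundant in soma, up to 8 called higher in testes by size, the 6 lowest, those beside the escape line, the first and last, and the extremes of the ovaries, egg and sex comparisons, 24 in all. Summaries were made in Python 3.11.15 with pandas 2.3.3, scipy 1.17.1, numpy 2.4.6 and matplotlib 3.10.9. The scripts were tested on simulated data. Sequences were not used here. Alternatives covered pseudocount, scaling, filters, limma-voom on read pairs, replicate block, somatic reference and removed libraries. Single testes, ovaries and egg libraries were left out in turn, and in the sex comparison single libraries of its 4 tissues. From the comparison of testes with soma whole somatic tissues were left out, but no single somatic library was.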

Additional observations from a re-analysis of the deposited data

Results flagged for a closer look

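The sex difference of LdNA_12486, a member of 2668 bases and 2 exons, differed between the 4 tissues sampled in both sexes (limma F test of the interaction across all genes, adjusted p = 0.0356). Males minus females was 1.83 ± 0.48 in fat body (SE; limma adjusted p = 0.028), -1.26 ± 0.48 in midgut (limma adjusted p = 0.49), 0.20 ± 0.53 in hindgut and -0.01 ± 0.48 in malpighian tubules. It was the 1 member past this test (0.323%), against 355 of 15538 genes (2.28%). Its testes level was 35.3, 41.4 and 32.0 TPM, against a somatic median of 449 TPM.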

How the results depend on the processing

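The low testes level of the members held under every alternative run, with 265 to 301 members lower than soma. Of the genes on other chromosomes, 15.95% to 37.2% were lower. The gap between members and other chromosomes against soma, ovaries and eggs was -2.22, -2.16 and -2.26 with a pseudocount of 0.1 TPM, -1.96, -1.93 and -2.01 with median-of-ratios scaling, -2.24, -2.19 and -2.29 with limma-voom, and for soma -2.03 without hemolymph and -1.13 over all genes of the chromosome. Without each testes, ovaries or egg library it was -2.05 to -2.04, -2.03 to -1.98 and -2.12 to -2.09, with 272 to 275, 274 to 285 and 281 to 285 members lower and 2 to 4, 3 to 4 and 0 to 1 higher. On the other chromosomes 15.95% to 17.4%, 18.0% to 33.6% and 23.1% to 26.6% were then lower. There 51.0% to 53.2%, 21.8% to 34.6% and 31.3% to 36.6% were higher.

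Median-of-ratios scaling shifted the median of all genes between testes and soma from 0.32 to 0.00. The members were then split 301 lower to 1 higher (278 to 5 as deposited), and the other chromosomes 37.2% to 40.6% (18.7% to 55.4%). In ovaries it gave 128 lower and 89 higher, and in eggs 104 lower and 69 higher, so those directions depend on the scaling. Without each ovaries library, 34 to 56 members were lower and 105 to 181 higher in ovaries. On the other chromosomes 9.10% to 15.1% were then lower and 40.4% to 62.7% higher. Without each egg library, 12 to 14 members were lower and 132 to 165 higher in eggs. There the other chromosomes had 5.86% to 6.86% lower and 41.9% to 55.2% higher, and the gap was -0.033 to -0.017.

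Escape counted 13 members with the line at 0, 18 at the lower quartile, 5 without fat body, and 2 to 4 without each testes library. With TPM above 5 in every library but testes, 1 of 160 genes of chromosome 6 escaped. Over all genes of the chromosome 79 of 796 did. In both, the line was the median of the other chromosomes under the same rule, which by definition as many of their genes exceed as not. LdNA_11919 escaped under all alternatives of the somatic reference, scaling and libraries. LdNA_12056 kept its call in none of the fits without a testes library (0.73 to 0.91). The call was also lost without aedeagus, genital ducts, hindgut or malpighian tubules. The same held with median-of-ratios scaling, with testes and somatic libraries only, and with the removed libraries included. LdNA_12056 fell below the escape line without genital ducts and without malpighian tubules, and LdNA_12124 did so without testes 2. Reversed were LdNA_12053 (-0.020, median-of-ratios), LdNA_13609 (0.13 with adult male soma, 0.034 without hemolymph) and LdNA_12757 (0.047 without testes 2, 0.022 without genital ducts, -0.50 at the lowest without 1 testes library), and the cause was not tested. The range of bin medians was 0.34 with 5 bins and 0.72 with 20.

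Members higher in males were 83 with limma-voom (other chromosomes 15.1%) and 44 with the replicate block (8.20%). They were 7 with the removed libraries included (0.383%) and 37 without male fat body 7 (7.70%). Members lower in males were 7 with median-of-ratios scaling, where 0.881% of the genes on other chromosomes were lower. They were 2 with the filter at 10 libraries (other chromosomes 0.134%), with limma-voom (0.172%) or with the removed libraries (0.172%). These sex counts are therefore not stable. Sample numbers were not taken as pairs, because not every same-numbered pair correlated above 0.1 (33 of 298 did). Those pairs included ones across sexes, stages and pools, which cannot be 1 animal. The criterion therefore does not settle whether some same-numbered tissues came from 1 animal, and no fit modelled the animal. Same-numbered L4 hindgut and midgut had 0.28 and 0.24, male hindgut and midgut 0.27 and 0.19, and male midgut and malpighian tubules -0.05 and 0.03. Testes and male somatic libraries of the same number had correlations of -0.10 to 0.25 (median 0.09, 3 of 9 above 0.1), and those of different number a median of -0.02 (1 of 45 above 0.1). With the replicate block, which joins equal numbers across sexes and stages and so does not model the animal, 281 members were lower in testes and 5 higher.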
